A study of Mus musculus with 60 samples.

Results

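The genes described here encode 10 proteins of the Polycomb system, and were taken by gene name. Rows of the count tables whose gene identifier maps to Ezh1, Ezh2, Eed, Suz12, Jarid2, Rnf2, Bmi1, Cbx2, Cbx7 or Kdm6b were taken, which gave 10 of the 56980 identifiers in each table. All 10 passed the filter on low counts, so each was tested in every comparison.

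Polycomb proteins keep developmental genes silent and help to hold a cell in its type. Polycomb repressive complex 2 (PRC2) places methyl groups on lysine 27 of histone H3 (H3K27) through Ezh2 or Ezh1, with Eed and Suz12 as the other core subunits and Jarid2 as an accessory subunit that helps to recruit the complex. Polycomb repressive complex 1 (PRC1) ubiquitinates histone H2A through Rnf2 (also called Ring1b), and Bmi1 is its best known Polycomb ring-finger partner. The chromobox proteins Cbx2 and Cbx7 bind the methylated H3K27 and bring PRC1 to it. Kdm6b (also called Jmjd3) removes methyl groups from H3K27 and so works against PRC2. Ezh2 is typically high in dividing cells and Ezh1 in resting ones, and the Cdkn2a and Cdkn2b genes, whose products halt the cell cycle in senescent fibroblasts, are classical targets of both complexes.

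RNA was sequenced from 60 cultures of mouse fibroblasts in 20 groups of 3 libraries, given in 2 tables of counts. The first table held 36 libraries of tail tip fibroblasts that can induce Oct4, Sox2, Klf4 and c-Myc (4F) with doxycycline. Its D/KO cells (genotype 4FJ_ERCC1_(d/-), male, 8 weeks) carry a truncated allele and a null allele of the DNA repair gene Ercc1, and its WT cells (4FJ_(+/-)_OCT4-GFP, female, 22 weeks) carry an Oct4 reporter. Both lines were sampled at day 0, and after 2 and 4 days of doxycycline at 2 µg/ml, with or without VC, which is ascorbic acid at 50 µg/ml and CHIR99021 (a GSK3 inhibitor) at 3 µM. The combination of 4F and VC is called enhanced reprogramming. The second table held 24 libraries of cells that were not induced: D/KO tail tip fibroblasts (ERCC1_(d/-), female, 4 weeks) as control or with Repsox, Vactosertib, A83-01 or DMH-1, WT fibroblasts of tail tip and of skin (ERCC1_(+/+), both female, 14 weeks), and WT tail tip fibroblasts with the 4F transgenes (female, 22 weeks) whose treatment is labelled TGFB. Repsox and A83-01 inhibit the TGFβ receptor kinase ALK5, Vactosertib inhibits ALK5 and ALK2, and DMH-1 inhibits ALK2. The 4F transgenes sit at the Col1a1 locus under a tetracycline-responsive promoter, with the rtTA activator expressed from ROSA26.

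No label places the 3 libraries of a group in separate animals, so p-values measure only the spread between these libraries. Genotype, sex, age and line differ together between the D/KO and WT cells of the reprogramming table and cannot be told apart, and in the inhibitor table, where all cells are female, the same holds for genotype, age and line. Total counts ran from 16538374 to 18484951 in the reprogramming table and from 17102639 to 30599138 in the inhibitor table. Fibroblast markers were high in every library, with sums over 10 genes from 36800 to 263000 CPM, which are counts scaled to the size of the library, in the reprogramming table and from 43800 to 180000 in the inhibitor table. Pou5f1 (Oct4) averaged 0.835 CPM in D/KO cells against 1.96 in WT cells at day 0, and 64.0 and 60.5 at day 4. At day 0 Ercc1 was at 11.9, 11.9 and 18.6 CPM in D/KO cells against 21.8, 21.9 and 18 in WT cells (log2 difference -0.54, adjusted p = 0.00833), but at 20.6, 20.3 and 20.9 in the control D/KO cells of the inhibitor table against 19.2, 13.3 and 21.7 in WT tail cells (0.19, adjusted p = 0.394). A truncated Ercc1 transcript would be counted with an intact one, so this gene is a weak check of the labels. In the inhibitor table, WT skin replicate 1 and Repsox replicate 2 stood more than 3 times as far from their group as the other 2 libraries stood from each other. Genes longer than 6000 bases took 29.4% and 28.5% of their counts, against 34.0% to 48.0% in the other libraries of that table, and called changes of the members that rest on them are given with and without them.

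The 10 genes lie on 7 autosomes. In the build of the count tables, GRCm39, Ezh2 spans chr6:47507073-47572275 on the minus strand, Ezh1 chr11:101081941-101117289 (minus), Eed chr7:89603862-89630191 (minus), Suz12 chr11:79883932-79924949 (plus) and Jarid2 chr13:44882950-45075119 (plus). Of the PRC1 genes, Rnf2 spans chr1:151333755-151376706 (minus), Bmi1 chr2:18681829-18691440 (plus), Cbx2 chr11:118913788-118922096 (plus) and Cbx7 chr15:79800008-79855320 (minus). Kdm6b spans chr11:69289334-69304501 on the minus strand. Reads of overlapping genes cannot be separated where the counting did not use strand, which the sources do not state: Cbx7 shares 100 exon bases with Apobec3 and Rnf2 158 with Trmt1l, both on the other strand, and Eed and Kdm6b each share 286 with a non-coding RNA of the other strand that held few counts.

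Promoter sequence is shown for 4 members, 2 that were higher with VC than without it in D/KO cells at day 4 (Ezh2 and Suz12) and 2 that were lower (Ezh1 and Cbx7). Each stretch holds 250 bases before and 50 bases after the start of the RefSeq gene, in build GRCm38.p6 and read 5′ to 3′ along the gene, and capitals mark letters searched as E2F sites on both strands, which were the spelling TTCCCGC, the spelling TTGGCGC, the spelling TTCGCGC and the spelling TTGCCGC. E2F factors switch on genes of DNA replication in dividing cells. The coordinates are chr6:47594981-47595280 (minus strand) for Ezh2, chr11:79992856-79993155 (plus) for Suz12, chr11:101226414-101226713 (minus) for Ezh1 and chr15:79932597-79932896 (minus) for Cbx7.
Ezh2: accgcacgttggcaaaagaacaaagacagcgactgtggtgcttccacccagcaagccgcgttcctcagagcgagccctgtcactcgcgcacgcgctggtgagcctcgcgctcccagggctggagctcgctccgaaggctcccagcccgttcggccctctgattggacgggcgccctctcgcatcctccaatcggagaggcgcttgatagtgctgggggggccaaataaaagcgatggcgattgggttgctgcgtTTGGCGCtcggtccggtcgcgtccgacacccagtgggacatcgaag
Suz12: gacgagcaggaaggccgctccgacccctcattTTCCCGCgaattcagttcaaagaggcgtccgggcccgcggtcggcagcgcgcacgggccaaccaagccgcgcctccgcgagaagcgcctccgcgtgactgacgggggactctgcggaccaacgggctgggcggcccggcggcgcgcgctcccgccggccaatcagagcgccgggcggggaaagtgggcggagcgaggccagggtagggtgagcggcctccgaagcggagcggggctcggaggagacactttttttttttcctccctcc
Ezh1: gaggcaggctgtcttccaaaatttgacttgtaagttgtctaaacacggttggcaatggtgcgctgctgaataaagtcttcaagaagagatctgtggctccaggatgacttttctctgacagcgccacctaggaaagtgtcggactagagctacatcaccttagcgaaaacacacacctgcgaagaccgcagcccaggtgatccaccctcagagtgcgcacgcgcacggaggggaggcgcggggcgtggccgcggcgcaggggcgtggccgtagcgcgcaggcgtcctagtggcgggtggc
Cbx7: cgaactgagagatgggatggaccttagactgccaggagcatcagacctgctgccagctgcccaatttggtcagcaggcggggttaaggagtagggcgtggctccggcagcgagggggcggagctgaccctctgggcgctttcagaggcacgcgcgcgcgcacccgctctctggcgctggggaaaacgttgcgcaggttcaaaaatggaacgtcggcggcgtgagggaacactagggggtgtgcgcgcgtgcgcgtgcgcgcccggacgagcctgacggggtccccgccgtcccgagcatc

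The Ezh2 stretch held 1 E2F match, TTGGCGC, whose first base is base 5 of the gene, and the Suz12 stretch held 1, TTCCCGC, at position -218. No E2F match was found in the Ezh1 and Cbx7 stretches or in those of Eed, Jarid2, Rnf2 and Bmi1, and 9.57% of the 32851 RefSeq windows of the same length hold at least 1. Suz12 also held 1 match to the TCF/LEF letters (the spelling CTTTGAT and the spelling CTTTGAA, both strands; 8.65% of windows), through which β-catenin acts when GSK3 is inhibited, at position -203. The CCAAT box (CCAAT, both strands; 37.4% of windows) occurred 3 times in Ezh2, 1 time each in Suz12 and Cbx7 and not in Ezh1. The SMAD palindrome GTCTAGAC (0.213% of windows) was in none of the members' windows. The GC-rich letters GGCGCC, bound by SMADs of the BMP branch (11.9% of windows), occurred 1 time each in Ezh2, at position -82, in Bmi1 and in 1 of the 2 Jarid2 windows, and that Jarid2 window also held the TATA box TATAAA (13.6% of windows). All 4 stretches were rich in CpG sites, with 31 in Ezh2, 41 in Suz12, 23 in Ezh1 and 33 in Cbx7, against a median of 7 over all windows. A match describes letters and is not evidence of binding.

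Levels of different genes were compared per kilobase of summed exon length (CPM per kb). The PRC1 genes Rnf2 and Bmi1 and the demethylase gene Kdm6b were the most abundant members: of the 10, Rnf2 and Bmi1 held places 1 to 3 and Kdm6b places 1 to 4 across the 20 groups. Suz12 held places 1 to 5, Ezh1 3 to 6 and Eed 4 to 6. Ezh2, Jarid2, Cbx2 and Cbx7 filled the low end, at places 7 to 10 for Ezh2, Cbx2 and Cbx7 and 8 to 10 for Jarid2. In D/KO cells at day 0, Kdm6b was at 14.5 ± 2.45 CPM per kb (SD, n = 3), Bmi1 at 13.9 ± 0.659, Ezh1 at 3.83 ± 0.721, Ezh2 at 1.33 ± 0.421 and Cbx7 at 0.501 ± 0.0843. From here on levels are CPM, which compare a gene only with itself across libraries.

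**Figure D1:**
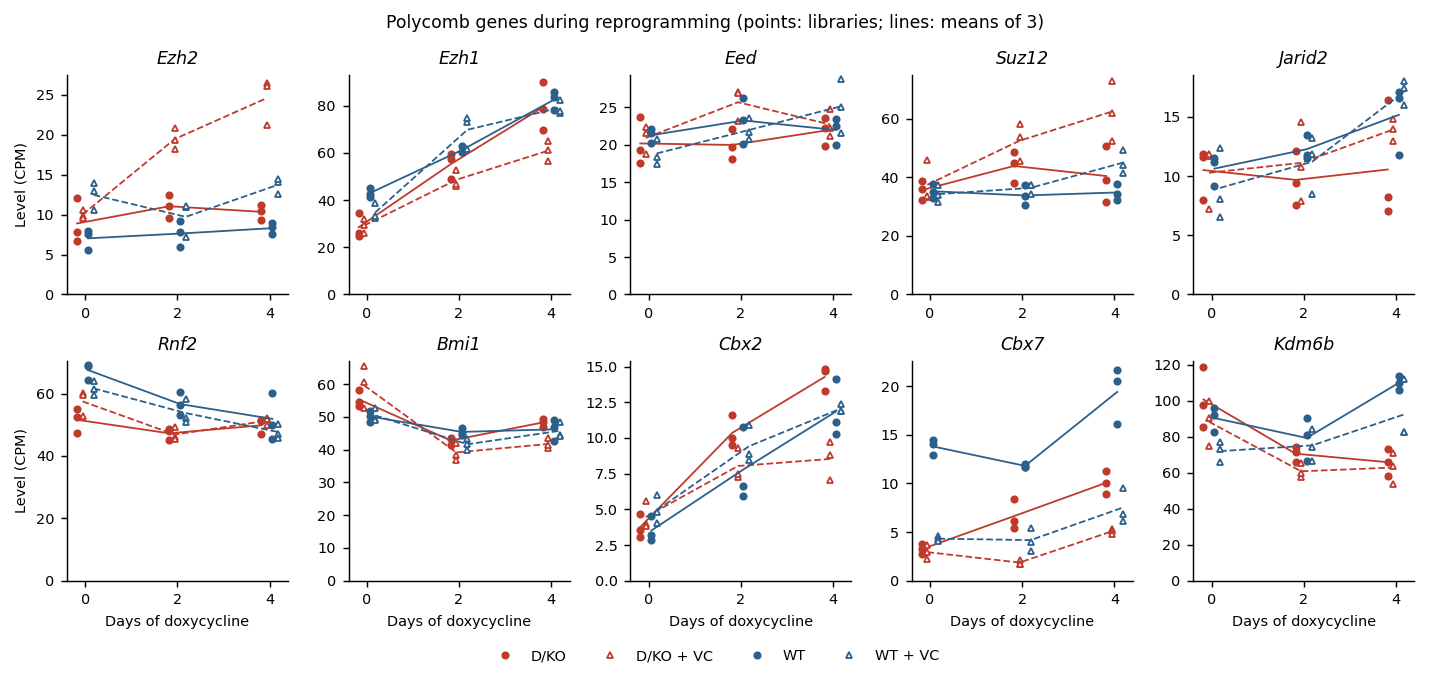
Level of each of the 10 Polycomb genes (CPM, vertical axis) by day of doxycycline (0, 2 and 4, horizontal axis) in D/KO and WT cells without and with VC; points are single libraries and lines join the means of 3. Ezh1 and Cbx2 go up in all 4 arms, Ezh2 reaches 21.2 to 26.5 CPM in D/KO cells with VC at day 4, and Cbx7 in WT cells is at 12.9 to 14.5 CPM at day 0 without VC and at 4.12 to 4.55 with it.

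Genes were tested with edgeR's quasi-likelihood F-test over all genes of a table, and a gene is said to rise or fall where the Benjamini-Hochberg adjusted p was under 0.05. Changes are given as log2 fold changes with their standard errors (SE). Without VC, in D/KO cells at day 2, Cbx2, Cbx7 and Ezh1 rose and Bmi1 and Kdm6b fell, 5 of 10 members beside 27.4% of the 15832 genes tested. At day 4 the same 3 members rose and Kdm6b fell, 4 of 10 beside 37.0% of all genes. With VC, 8 of 10 changed at day 2 (4 up and 4 down; 47.4% of all genes) and 7 of 10 at day 4 (5 up and 2 down; 54.1%). The median of the members at day 4 with VC was 0.585 on the log2 scale, against 0.013 over all genes tested. In WT cells Cbx2 and Ezh1 rose at day 2 (10.6% of all genes called), and Cbx2, Cbx7 and Ezh1 rose and Rnf2 fell at day 4 (24.5%). With VC, 3 members changed in WT cells at day 2 (27.5% of all genes) and 8 at day 4, where 7 rose and Rnf2 fell (44.7%). The median of the members at day 4 with VC was 0.405 in WT cells, against 0.026 over all genes. More of all genes were thus called at day 4 with VC than in any other comparison with day 0 of the same line. Markers of several cell types moved beside these changes. Endothelial markers (4 genes) in D/KO cells without VC summed to 557 to 678 CPM at day 0, 363 to 445 at day 2 and 214 to 223 at day 4, where 4 of 4 had fallen, and epithelial markers (6 genes, 5 tested) went from 3.03 to 5.01 CPM to 47.2 to 69.8 at day 4, where 4 rose and 1 fell. Fibroblast markers moved in both lines. Their sums went from 96800 to 133000 CPM at day 0 to 42900 to 44700 at day 4 in D/KO cells (7 of 10 fell and 1 rose) and with VC from 191000 to 263000 to 36800 to 38400 (8 fell and 1 rose). In WT cells they went from 63200 to 64000 CPM to 52600 to 54500 (3 fell and 3 rose) and with VC from 162000 to 178000 to 64400 to 76000 (6 fell and 2 rose). Immune cell markers (5 genes) went from 12.8 to 13.4 CPM to 6.48 to 6.84 at day 4 in D/KO cells, and with VC from 10.2 to 12.8 to 2.45 to 2.91. In WT cells they went from 75.6 to 146 CPM to 53.6 to 67.5, and with VC from 69.6 to 118 to 41.6 to 44.3. Schwann cell markers (3 genes) went from 2.65 to 4.63 CPM to 6.58 to 8.09 in D/KO cells without VC. The part of all these markers in the members' values was not tested.

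Ezh1, the catalytic subunit of PRC2 in resting cells, rose in 8 of 8 comparisons with day 0. The D/KO libraries were at 24.7, 34.6 and 26.1 CPM at day 0, 57.2, 59.5 and 48.9 at day 2 and 78.4, 89.9 and 69.7 at day 4. The 3 days did not overlap, and the rise to day 4 was 1.48 (SE 0.12, adjusted p = 4.45e-13), or 2.78-fold. With VC the level went from 32.0, 26.1 and 29.5 CPM to 65.2, 61.3 and 56.4 at day 4, a rise of 1.06 (SE 0.12, adjusted p = 7.95e-10). WT cells started higher, at 41.3, 42.4 and 45.0 CPM, and reached 83.8, 78.0 and 85.7 at day 4 (0.94, SE 0.11, adjusted p = 3.56e-08). WT cells with VC went from 32.4, 38.6 and 33.2 CPM to 82.5, 76.9 and 77.8 (1.19, SE 0.11, adjusted p = 9.74e-11). Without VC, D/KO libraries lay below those of WT at day 0 and spanned them at day 4, whereas with VC every D/KO library lay below every WT library at day 4. The change to day 4 without VC was larger in D/KO than in WT cells by 0.53 (SE 0.16, adjusted p = 0.02; 14.3% of all genes differed between the lines in this way). This call was lost without D/KO day 0 replicate 1 or 3, D/KO day 4 replicate 2, WT day 0 replicate 3 or WT day 4 replicate 2, with adjusted p from 0.0539 to 0.0888. A further rise from day 2 to day 4 was called in D/KO cells without VC (0.52, adjusted p = 0.00129) and with VC (0.33, adjusted p = 0.041), and in WT cells without VC (0.43, adjusted p = 0.0058). The call with VC was lost without D/KO day 2 replicate 2 or 3 or day 4 replicate 1 or 2, with adjusted p from 0.0998 to 0.176.

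Ezh2, the catalytic subunit of PRC2 in dividing cells, rose in D/KO cells with VC and showed no called change with 4F alone. D/KO cells with VC held 9.84, 9.57 and 10.6 CPM at day 0, 20.9, 18.2 and 19.3 at day 2 and 26.5, 21.2 and 26.1 at day 4. No library of one day overlapped those of another, and the rises were 0.96 at day 2 (SE 0.18, adjusted p = 3.93e-05) and 1.30 at day 4 (SE 0.18, adjusted p = 1.67e-07, or 2.46-fold). Without VC the D/KO libraries ran from 6.72 to 12.1 CPM at day 0 and from 9.34 to 11.2 at day 4, with changes of 0.32 and 0.22 that were not called. In WT cells the level was at 5.58, 8.0 and 7.51 CPM at day 0 and 8.9, 7.63 and 8.39 at day 4 (0.24, adjusted p = 0.384). With VC it was at 10.6, 13.9 and 12.9 CPM at day 0 and 14.1, 14.5 and 12.6 at day 4 (0.14, adjusted p = 0.546), after a dip at day 2 (7.17, 10.9 and 11.1 CPM; -0.36, adjusted p = 0.159). The change with enhanced reprogramming was larger in D/KO than in WT cells by 1.32 at day 2 (SE 0.26, adjusted p = 0.00041; 13.9% of all genes) and by 1.16 at day 4 (SE 0.26, adjusted p = 0.000692; 29.4%). The size of this difference rests on the baseline, since Ezh2 at day 0 was higher with VC in WT cells: against day 0 without VC the differences were 0.67 (adjusted p = 0.0667) and 0.51 (adjusted p = 0.171). Of the 12 groups, D/KO with VC at days 4 and 2 held the highest Ezh2 levels, apart from each other and from the rest, and every lower neighbour in the order overlapped the next.

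Proliferation markers, 15 genes of DNA replication and mitosis, moved beside Ezh2 in D/KO cells with VC. Their summed level was 319 to 329 CPM in D/KO cells with VC at day 0, 534 to 578 at day 2 and 739 to 878 at day 4, and 15 of 15 rose by day 4. In WT cells with VC the sums were 342 to 392 at day 0 and 263 to 283 at day 4, where 8 of 15 fell and none rose. Ezh2 showed no called change from day 0 there. Without VC the D/KO sums were 269 to 333 at day 0, 375 to 467 at day 2 and 298 to 329 at day 4. No change of Ezh2 from day 0 was called in that arm either. Over the 12 group means of the reprogramming table, Ezh2 and the summed markers correlated with a Pearson r of 0.889, and over the 8 of the inhibitor table with 0.881. For Suz12 the same values were 0.812 and -0.077, for Kdm6b -0.742 and 0.071 and for Cbx7 -0.702 and -0.276, and the other members lay between -0.439 and 0.09 in the reprogramming table and between -0.385 and 0.606 in the inhibitor table. These are descriptions over groups that share lines, media and tables. In bulk RNA, fewer cells of a type and less RNA per cell cannot be told apart, and the part of cell division in the Ezh2 values was not tested. Epithelial markers (6 genes) also went up in D/KO cells with VC, from sums of 0.324 to 1.12 CPM at day 0 to 480 to 591 at day 4, against 7.02 to 8.14 in WT cells with VC at day 4, and their part was not tested.

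**Figure D2:**
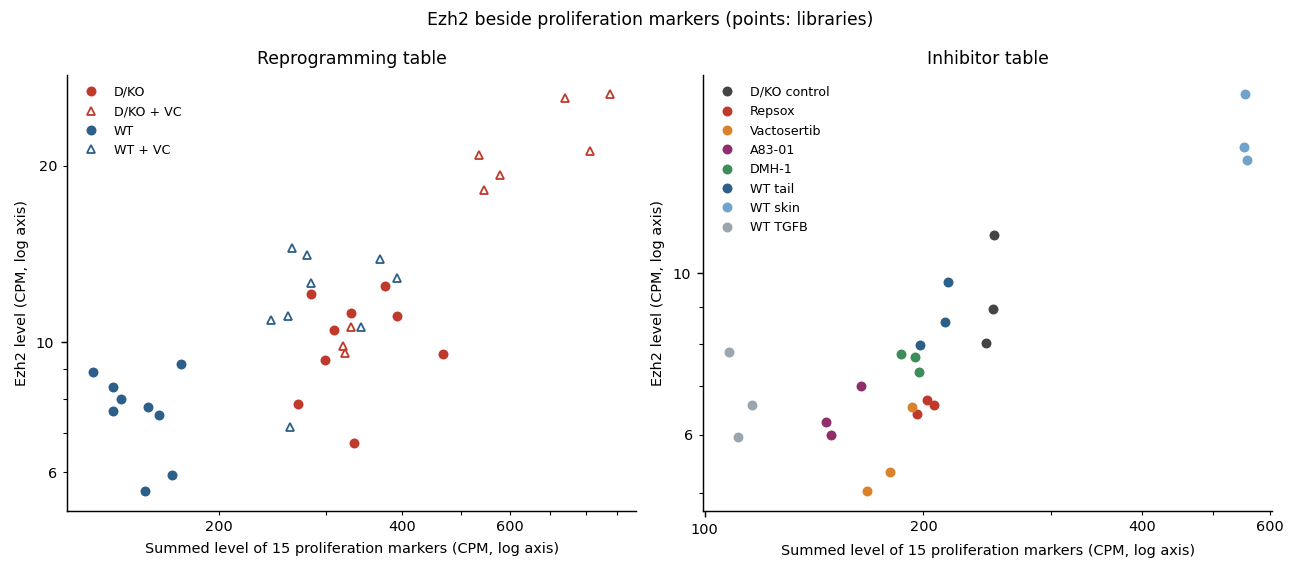
Ezh2 level (CPM, vertical log axis) against the summed level of 15 proliferation markers (CPM, horizontal log axis), each point a library, in the reprogramming table (left) and the inhibitor table (right). D/KO libraries with VC at day 4 sit at the top right, at sums of 739 to 878 CPM, and the WT skin libraries sit at the top right of the inhibitor table, at sums of 552 to 557 CPM.

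The balance of the paralogs Ezh1 and Ezh2, taken as the ratio of their CPM per kb, was higher at each later day without VC in D/KO cells and not with VC. Without VC it was 1.84, 3.95 and 3.49 at day 0, 4.62, 4.28 and 4.6 at day 2 and 7.54, 7.72 and 5.6 at day 4, with no overlap between days. With VC it was 2.92, 2.45 and 2.5 at day 0, 2.27, 2.26 and 2.18 at day 2 and 2.21, 2.59 and 1.94 at day 4, so that day 2 lay below day 0 in every library and day 4 overlapped both. WT cells had a ratio of 5.59 ± 0.96 (SD, n = 3) at day 0 and 8.93 ± 0.418 at day 4, and with VC 2.52 ± 0.215 at day 0, 6.58 ± 0.964 at day 2 and 5.17 ± 0.394 at day 4. Per kb, Ezh1 lay above Ezh2 in every group mean, by 2.24-fold or more in all groups but WT skin cells, where the ratio was 1.2 ± 0.459.

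**Figure D3:**
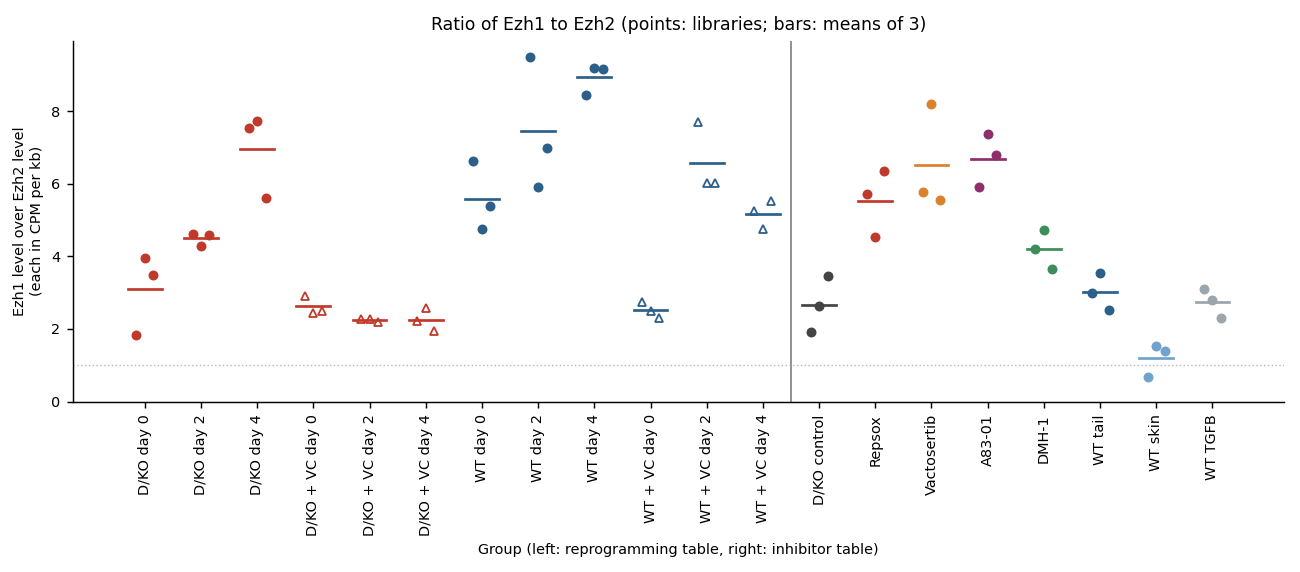
Ratio of the Ezh1 level to the Ezh2 level, each in CPM per kb (vertical axis from 0, dotted line at 1), in the 20 groups (horizontal axis); points are libraries and bars means of 3. In D/KO cells the mean goes from 3.09 at day 0 to 6.95 at day 4 without VC and from 2.62 to 2.25 with VC.

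Suz12, the subunit that holds PRC2 together, rose with enhanced reprogramming. With VC the D/KO libraries were at 33.1, 33.5 and 45.7 CPM at day 0, 53.7, 45.6 and 58.0 at day 2 and 72.9, 52.3 and 61.9 at day 4. Day 4 lay above day 0 in every library, with a rise of 0.74 (SE 0.14, adjusted p = 4.15e-05), and at day 2 the rise was 0.49 (SE 0.14, adjusted p = 0.00528). WT cells with VC went from 31.5, 37.2 and 34.0 CPM to 41.5, 44.1 and 49.2 at day 4, a rise of 0.39 (SE 0.14, adjusted p = 0.0249). That call was lost without WT day 0 replicate 1 or 3 or day 4 replicate 3, with adjusted p of 0.101, 0.062 and 0.101. The D/KO and WT changes at day 4 differed by 0.34 (SE 0.20, adjusted p = 0.207), which was not called. No change was called for Suz12 with 4F alone in either line.

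Eed, which binds methylated H3K27 and stimulates PRC2, was called in few comparisons. Its libraries spanned 17.5 to 27 CPM in D/KO and 17.4 to 28.8 in WT cells over all 36 libraries. A rise was called in WT cells with VC at day 4 (18.3, 17.4 and 20.8 CPM at day 0 against 21.6, 25.0 and 28.8; 0.42, SE 0.13, adjusted p = 0.00789), and not without day 4 replicate 3 (adjusted p = 0.0758) or against day 0 without VC (0.24, adjusted p = 0.13). Jarid2 rose in the same comparison, from 8.02, 12.4 and 6.57 CPM to 18, 17.4 and 16.0 (0.93, SE 0.26, adjusted p = 0.00332), with no overlap. In D/KO cells with VC, Jarid2 was at 11.7, 7.23 and 11.9 CPM at day 0 and 14.8, 13.0 and 14.0 at day 4 (0.44, SE 0.26, adjusted p = 0.152). The lines' changes in Jarid2 differed by -0.49 (SE 0.36, adjusted p = 0.323), so no difference between them was detectable.

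Of the reader genes, Cbx2 had the largest rise of any member with 4F alone, at day 4 in both lines. It rose in 8 of 8 comparisons with day 0. In D/KO cells it went from 3.03, 3.58 and 4.66 CPM to 9.49, 10.0 and 11.6 at day 2 and 14.8, 14.7 and 13.3 at day 4, a rise of 1.92 (SE 0.22, adjusted p = 2.96e-09, or 3.78-fold). WT cells went from 2.82, 3.17 and 4.55 CPM to 10.3, 11.1 and 14.1 at day 4 (1.75, SE 0.21, adjusted p = 6.99e-08). With VC the rise to day 4 was 0.93 in D/KO cells (adjusted p = 0.000428), to 9.73, 8.8 and 7.06 CPM, and 1.29 in WT cells (adjusted p = 4.98e-06), to 11.9, 11.9 and 12.4 CPM. In D/KO cells at day 4 the libraries with VC lay below those without, by 0.74 (SE 0.20, adjusted p = 0.00349).

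Cbx7, the chromobox protein best known for holding Cdkn2a silent in proliferating cells, rose by day 4 with 4F alone. It was lower with VC than without it in 5 of 6 comparisons. D/KO cells went from 3.8, 3.23 and 2.71 CPM at day 0 to 6.15, 8.36 and 5.4 at day 2 and 11.3, 10.0 and 8.9 at day 4. The days did not overlap, and the rise to day 4 was 1.64 (SE 0.20, adjusted p = 2.47e-08, or 3.1-fold). WT cells already held 14.5, 14.0 and 12.9 CPM at day 0, with 11.7, 12 and 11.7 at day 2 (-0.22, adjusted p = 0.498) and 16.1, 21.6 and 20.5 at day 4 (0.49, SE 0.18, adjusted p = 0.0385). The WT call at day 4 was lost without day 0 replicate 1, 2 or 3 or day 4 replicate 2 or 3, with adjusted p from 0.0636 to 0.153. The change was larger in D/KO than in WT cells by 1.25 at day 2 (SE 0.27, adjusted p = 0.00274; 6.54% of all genes) and by 1.14 at day 4 (SE 0.27, adjusted p = 0.00271).

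With VC, Cbx7 was lower at day 2 and higher at day 4 than at day 0 in D/KO cells. The D/KO libraries with VC held 3.63, 2.94 and 2.25 CPM at day 0, 1.74, 2.13 and 1.73 at day 2 and 5.29, 5.07 and 4.85 at day 4. The fall at day 2 was -0.66 (SE 0.24, adjusted p = 0.0226) and was not called without day 0 replicate 1 (-0.47, adjusted p = 0.164), day 2 replicate 1 (-0.60, adjusted p = 0.0755) or day 2 replicate 3 (-0.61, adjusted p = 0.0728). The rise at day 4 was 0.78 (SE 0.21, adjusted p = 0.00232). Endothelial markers took a like course in these libraries. Their sums were 205 to 248 CPM at day 0, 114 to 134 at day 2 and 288 to 389 at day 4. Without VC their sums in D/KO cells were 557 to 678 CPM at day 0 and 214 to 223 at day 4, where Cbx7 rose. The part of these markers in the Cbx7 values was not tested. WT cells with VC held 4.55, 4.3 and 4.12 CPM at day 0 and 6.16, 9.55 and 6.83 at day 4, a rise of 0.80 (SE 0.20, adjusted p = 0.00132). Against WT day 0 without VC the same day 4 libraries were lower, by -0.87 (SE 0.19, adjusted p = 0.000231), so the direction of this change depends on the baseline. From day 2 to day 4 Cbx7 rose in 4 of 4 arms, by 0.60 in D/KO, 1.44 in D/KO with VC, 0.72 in WT and 0.84 in WT with VC. The first of these was lost without D/KO day 2 replicate 1 or 3 or day 4 replicate 1 or 2, with adjusted p from 0.0814 to 0.221. Apobec3, which shares 100 exon bases with Cbx7, moved with it in some comparisons and not in others. It rose in D/KO cells without VC (0.84 at day 2 and 0.66 at day 4) and with VC at day 4 (0.84), where Cbx7 also rose, and its change without VC was larger in D/KO than in WT cells too (by 0.89 at day 2 and 0.51 at day 4). In D/KO cells with VC at day 2 it rose (1.10) where Cbx7 fell. The part of shared reads in the Cbx7 values was not tested.

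The PRC1 core genes Rnf2 and Bmi1 changed by smaller amounts and mostly downward. Bmi1 fell in D/KO cells with VC from 52.6, 60.6 and 65.7 CPM to 38.4, 42.2 and 36.9 at day 2 (-0.61, SE 0.09, adjusted p = 2.78e-07) and 43.6, 40.4 and 41.3 at day 4 (-0.51, SE 0.09, adjusted p = 3.71e-06). It also fell at day 2 in D/KO cells without VC (-0.37, adjusted p = 0.000834) and in WT cells with VC (-0.28, adjusted p = 0.0132), the latter not without WT day 0 replicate 2 or day 2 replicate 1 (adjusted p = 0.0682 in both cases). The D/KO change at day 4 with VC was lower than that of WT by -0.37 (SE 0.12, adjusted p = 0.0175), a call lost without D/KO day 0 replicate 3 (adjusted p = 0.068), without WT day 4 replicate 3 (adjusted p = 0.0575) and against day 0 without VC (-0.28, adjusted p = 0.102). Rnf2 fell in WT cells from 64.3, 69.0 and 69.3 CPM to 50.0, 60.3 and 45.4 at day 4 (-0.38, SE 0.09, adjusted p = 0.00202). With VC it fell there from 59.4, 64.2 and 61.4 CPM to 47.1, 50.2 and 45.8 (-0.37, SE 0.09, adjusted p = 0.00132). At day 2 Rnf2 fell in D/KO cells with VC (-0.30, SE 0.09, adjusted p = 0.0088), but not against day 0 without VC (-0.14, adjusted p = 0.226).

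Kdm6b, the H3K27 demethylase, fell in D/KO cells in 4 of 4 comparisons with day 0. Its D/KO libraries held 97.9, 119 and 85.4 CPM at day 0, 74.2, 71.8 and 65.9 at day 2 and 73.4, 58.1 and 66.2 at day 4. Day 0 lay above days 2 and 4 in every library, and the change at day 4 was -0.61 (SE 0.13, adjusted p = 0.0003). The changes were -0.51 at day 2, where the call was lost without day 0 replicate 2 (-0.38, adjusted p = 0.0505), and with VC -0.54 at day 2 and -0.49 at day 4. WT cells held 96.3, 82.7 and 92.3 CPM at day 0 and 110.0, 106 and 114 at day 4 (0.28, adjusted p = 0.119). The lines differed in the change at day 4 by -0.89 without VC (SE 0.19, adjusted p = 0.000788) and by -0.85 with VC (SE 0.19, adjusted p = 0.000705). They also differed by -0.60 at day 2 with VC (SE 0.19, adjusted p = 0.0271), a call lost against day 0 without VC (-0.46, adjusted p = 0.077) and without any of 6 libraries: D/KO day 0 replicate 1 or 2, D/KO day 2 replicate 2 or 3, WT day 0 replicate 1 and WT day 2 replicate 3 (adjusted p from 0.0528 to 0.0891). WT cells with VC showed a rise at day 4 (0.36, SE 0.13, adjusted p = 0.0262) that was lost without day 0 replicate 1 (adjusted p = 0.113) or 3 (0.0545) or day 4 replicate 1 (0.253), and against day 0 without VC (0.03, adjusted p = 0.876). The share of counts in genes longer than 6000 bases moved beside Kdm6b, whose exons sum to 6954 bases. It was 41.9% to 45.7% in D/KO cells at day 0 and 34.4% to 41.9% at day 4, and with VC 48.8% to 50.3% and 34.4% to 39.6%. In WT cells it was 42.0% to 44.2% at day 0 and 44.2% to 44.8% at day 4, and with VC 44.5% to 48.7% and 41.2% to 43.7%, where Kdm6b rose. Ezh1, Ezh2, Jarid2 and Cbx7 also sum to more than 6000 bases (7440, 6678, 9715 and 6487). Of these, Ezh1 and Cbx7 rose in D/KO cells at day 4 without and with VC, and none fell there. The part of this share in the values of Kdm6b and the other members was not tested.

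From day 2 to day 4 few members changed. Cbx7 and Ezh1 rose in D/KO cells without VC (9.57% of all genes called) and with VC (15.6%). In WT cells Cbx2, Cbx7, Ezh1 and Kdm6b rose without VC (21.5%), where Kdm6b was not called without day 2 replicate 2 (adjusted p = 0.113) and Cbx2 not without day 2 replicate 1 or 3 or day 4 replicate 2 or 3 (adjusted p from 0.0528 to 0.17). Cbx7 and Ezh2 rose in WT cells with VC (20.1%), and the Ezh2 rise of 0.50 (adjusted p = 0.0488) was lost without day 2 replicate 1 or any of the 3 day 4 replicates, with adjusted p from 0.0621 to 0.303.

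The effect of VC itself was read at each day. Before induction, VC changed none of the 10 members in D/KO cells, where edgeR called 26.1% of all genes. No member there had an unadjusted p under 0.05, and DESeq2 also called 0. In WT cells at day 0 VC lowered Cbx7 and Ezh1 and raised Ezh2 (29.4% of all genes). Cbx7 there was at 14.5, 14.0 and 12.9 CPM without and 4.55, 4.3 and 4.12 with VC, a fall of -1.67 (SE 0.20, adjusted p = 2.2e-08) to 0.314 of the level. Ezh2 rose from 5.58, 8.0 and 7.51 to 10.6, 13.9 and 12.9 CPM (0.82, SE 0.19, adjusted p = 0.000821), and 14 of the 15 proliferation markers rose beside it, against 1 of 15 in D/KO cells. The Ezh1 change of -0.30 (adjusted p = 0.0417) was lost without WT day 0 replicate 1, 2 or 3 or day 0 VC replicate 1 or 3, with adjusted p from 0.0562 to 0.15.

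During induction VC lowered Cbx7 in 4 of 4 comparisons. The falls were -1.83 at day 2 and -0.99 at day 4 in D/KO cells (adjusted p = 4.61e-08 and 8.99e-05) and -1.49 and -1.37 in WT cells (adjusted p = 3.37e-07 and 5.05e-07). Ezh2 was raised by VC in D/KO cells at day 2 (0.82, adjusted p = 0.000619) and day 4 (1.25, adjusted p = 7.5e-07) and in WT cells at day 4 (0.73, adjusted p = 0.00292). Summed proliferation markers in D/KO cells were at 534 to 578 CPM with VC against 375 to 467 at day 2, and 739 to 878 against 298 to 329 at day 4. In WT cells they were at 263 to 283 against 124 to 134 at day 4. They were also higher with VC in WT cells at day 2 (243 to 261 against 153 to 173), where Ezh2 was not called. Eed rose with VC in D/KO cells at day 2 (0.36, adjusted p = 0.0335), which was lost without day 2 replicate 1 or 2 or day 2 VC replicate 2 or 3 (adjusted p from 0.0894 to 0.157). At day 4 in D/KO cells VC also raised Suz12 (0.63, adjusted p = 0.000614) and lowered Ezh1 (-0.38, adjusted p = 0.00717; without D/KO day 4 replicate 2, -0.28 and 0.0749). VC thus moved 3 members at day 2 and 5 at day 4 in D/KO cells (25.3% and 34.5% of all genes), and 1 at day 2 and 2 at day 4 in WT cells (26.6% and 22.4%). Apobec3 was higher with VC in D/KO cells at days 2 and 4 (0.65 and 0.56) and in WT cells at days 0 and 2 (0.39 and 0.87), where Cbx7 was lower. VC before induction also moved fibroblast markers, from 96800 to 133000 CPM to 191000 to 263000 in D/KO cells and from 63200 to 64000 CPM to 162000 to 178000 in WT cells (6 of 10 rose in each line). Endothelial markers in D/KO cells went from 557 to 678 CPM to 205 to 248 with VC, where 4 of 4 fell. During induction they were at 114 to 134 with VC against 363 to 445 at day 2, and 288 to 389 against 214 to 223 at day 4. Of the 4 skeletal muscle markers, Myod1, Myf5 and Pax7 averaged under 0.1 CPM and only Des was tested. Before induction their sum went with VC from 20.8 to 34.4 CPM to 4.82 to 9.75 in D/KO cells, where Des fell. In WT cells it went from 1.82 to 3.01 to 8.05 to 11.3, where Des rose. The part of these markers was not tested.

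**Figure D4:**
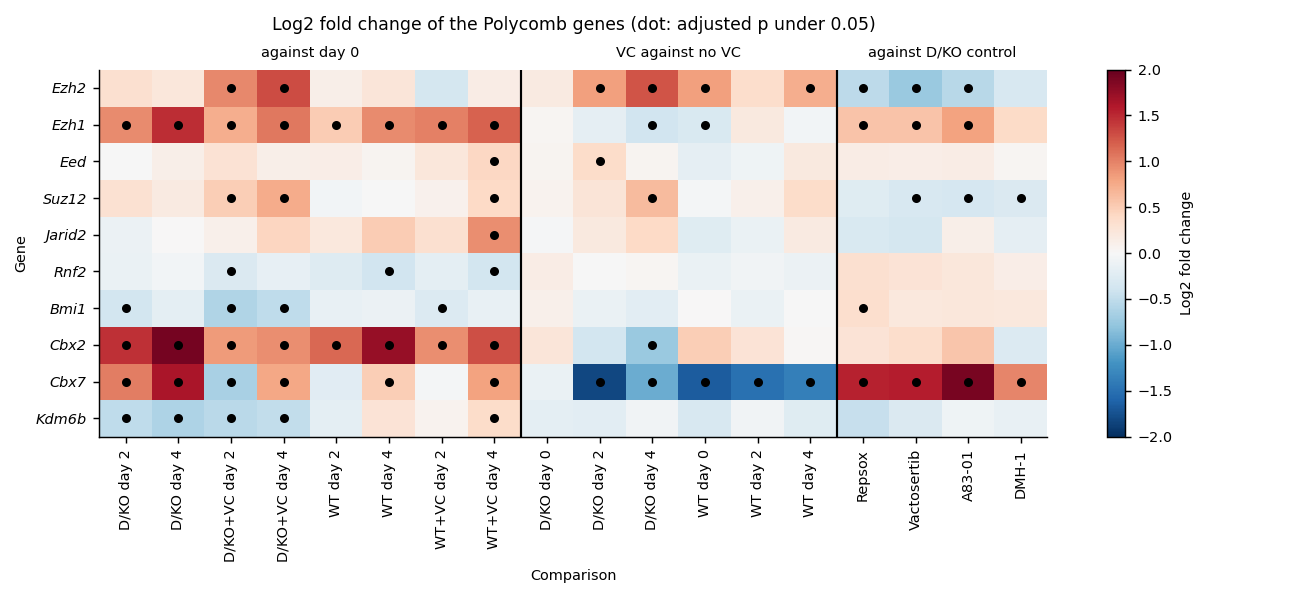
Log2 fold change (colour scale) of the 10 Polycomb genes (rows) in comparisons with day 0, of VC with no VC, and of each inhibitor with control D/KO cells (columns); a dot marks an adjusted p under 0.05. Ezh1 and Cbx2 carry a dot in all 8 comparisons with day 0, and Cbx7 has dots for 5 rises and 1 fall in those 8 comparisons and for 5 falls in the 6 comparisons of VC with no VC.

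At day 0 without VC the lines differed in 3 members, each lower in D/KO than in WT cells (43.2% of all genes differed). Cbx7 was lower by -2.09 (SE 0.20, adjusted p = 1.35e-10), at 2.71 to 3.8 CPM against 12.9 to 14.5. Ezh1 was lower by -0.59 (SE 0.12, adjusted p = 8.02e-05) and Rnf2 by -0.39 (SE 0.09, adjusted p = 0.00083). Trmt1l, which shares 158 exon bases with Rnf2, was also lower (-0.46, adjusted p = 0.00186), and the part of shared reads was not tested. Beside these differences, immune cell markers (5 genes) summed to 75.6 to 146 CPM in WT and 12.8 to 13.4 in D/KO cells, and endothelial markers (4 genes) to 0.165 to 1.64 over all WT libraries and 557 to 678 in D/KO cells at day 0. Proliferation markers summed to 269 to 333 CPM in D/KO and 138 to 159 in WT cells, with 13 of 15 higher in D/KO cells. The part of cell division and of other cell types in the line difference was not tested.

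In the inhibitor table Cbx7 rose with all 4 compounds. It was at 2.51, 2.2 and 2.77 CPM in control D/KO cells, 7.73, 6.77 and 7.21 with Repsox, 7.32, 8.4 and 6.58 with Vactosertib, 8.23, 10.3 and 9.39 with A83-01 and 5.74, 4.31 and 4.63 with DMH-1. Every treated library lay above every control library. The rises were 1.54 with Repsox, 1.58 with Vactosertib and 1.90 with A83-01 (SE 0.24 each, adjusted p = 7.26e-05, 7.03e-05 and 3.48e-06), up to 3.73-fold. With DMH-1 the rise was 0.98 (SE 0.24, adjusted p = 0.0156) and was lost without control replicate 1 (adjusted p = 0.0608) or 2 (0.0903) or DMH-1 replicate 1 (0.0867). Without Repsox replicate 2 the Repsox rise was 1.58 (adjusted p = 0.000178). Apobec3 was not called with any compound. Markers of other cell types moved beside Cbx7. Schwann cell markers (3 genes) summed to 6.61 to 9.54 CPM in control cells, 17.2 to 18.7 with Repsox, 13.7 to 17.6 with Vactosertib, 30.8 to 38.9 with A83-01 and 10.9 to 13.8 with DMH-1, and 3, 2, 3 and 0 of them rose. Endothelial markers went from 273 to 314 CPM to 107 to 146 with A83-01, where 3 of 4 fell, and none fell with the other compounds. Fibroblast markers went from 88900 to 101000 CPM to 43800 to 58400 with Repsox, 57400 to 62900 with Vactosertib, 47900 to 51500 with A83-01 and 75000 to 93100 with DMH-1. Immune cell markers (5 genes) went from 10.1 to 14.3 CPM in control cells to 15.9 to 28.5 with Repsox and 15.6 to 22.9 with A83-01. With Vactosertib (13.8 to 28.3) and DMH-1 (9.03 to 12.6) they overlapped control cells. Of 4 skeletal muscle markers, Myod1, Myf5 and Pax7 averaged under 0.1 CPM. Their sums were 10.2 to 12.6 CPM in control cells and 6.63 to 10.6 with Repsox. With Vactosertib, A83-01 and DMH-1 they were 6.37 to 7.62, 5.99 to 7.27 and 6.27 to 6.74. The part of all these markers in the members' values was not tested.

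The catalytic subunits moved apart with the 3 compounds that inhibit ALK5. Ezh2 was at 11.3, 8.93 and 8.03 CPM in control cells and fell to 6.59, 6.69 and 6.42 with Repsox (-0.52, SE 0.15, adjusted p = 0.0139), 6.56, 5.03 and 5.33 with Vactosertib (-0.74, SE 0.15, adjusted p = 0.00113) and 7.0, 5.99 and 6.25 with A83-01 (-0.56, SE 0.15, adjusted p = 0.00662). Control replicate 1 was the highest library, and without it the changes were -0.37 with Repsox (adjusted p = 0.119) and -0.40 with A83-01 (adjusted p = 0.069). Without Repsox replicate 2 the Repsox change was -0.54 (adjusted p = 0.0302). With DMH-1 it was at 7.74, 7.31 and 7.67 CPM, below each control library too (-0.32, adjusted p = 0.238). Ezh1 went from 24.2, 26.2 and 31 CPM to 46.1, 49.2 and 47.2 with A83-01 (0.81, SE 0.18, adjusted p = 0.00152). It rose by 0.57 with Repsox (adjusted p = 0.0254) and by 0.57 with Vactosertib (adjusted p = 0.0287), and was 0.38 higher with DMH-1 (adjusted p = 0.245). The Repsox rise was lost without control replicate 1 or 2 or Repsox replicate 1 or 3 (adjusted p from 0.0738 to 0.111), and without Repsox replicate 2 it was 0.69 (adjusted p = 0.0152). The Vactosertib rise was lost without control replicate 1 or 2 or Vactosertib replicate 1 or 2 (adjusted p from 0.0916 to 0.131). The ratio of Ezh1 to Ezh2 per kb was 2.67 ± 0.771 (SD, n = 3) in control cells, 5.52 ± 0.925 with Repsox (4.52 in replicate 2), 6.5 ± 1.46 with Vactosertib, 6.69 ± 0.736 with A83-01 and 4.19 ± 0.545 with DMH-1, and every treated library lay above every control library.

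Suz12 was lower with all 4 compounds, at 37.3, 39 and 36.7 CPM in control cells, 31.6, 30.4 and 33.9 with Repsox, 30.5, 30.3 and 29.9 with Vactosertib, 29.7, 29.1 and 30.9 with A83-01 and 30.9, 31.1 and 30.3 with DMH-1. The changes were -0.32 with Vactosertib, -0.33 with A83-01 and -0.29 with DMH-1 (SE 0.09 each, adjusted p = 0.0135, 0.00573 and 0.0427), and -0.24 with Repsox (adjusted p = 0.0579; without Repsox replicate 2, -0.20 and 0.174), which was not called. The DMH-1 call was lost without any 1 of its 6 libraries (adjusted p from 0.0901 to 0.172), and the Vactosertib call without control replicate 2 (adjusted p = 0.0699) or Vactosertib replicate 3 (0.0568). Bmi1 rose with Repsox (0.34, SE 0.11, adjusted p = 0.0248), but not without Repsox replicate 2 (0.34, adjusted p = 0.0508) or 3, or control replicate 2 or 3 (adjusted p up to 0.102). In all, 4 members were called with Repsox, 4 with Vactosertib, 4 with A83-01 and 2 with DMH-1, beside 20.7%, 18.1%, 27.5% and 7.25% of the 15652 genes tested. The 4 comparisons share the same control libraries. Summed proliferation markers were 244 to 250 CPM in control cells, 196 to 207 with Repsox, 167 to 193 with Vactosertib, 147 to 164 with A83-01 and 186 to 197 with DMH-1, and 5, 8, 11 and 3 of the 15 fell. Their part in the Ezh2 and Suz12 values was not tested. Eed, Jarid2, Rnf2, Cbx2 and Kdm6b were not called with any of the 4, with Kdm6b at 29.2 CPM in Repsox replicate 2 against 87.2 and 87.6 in the other Repsox libraries.

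**Figure D5:**
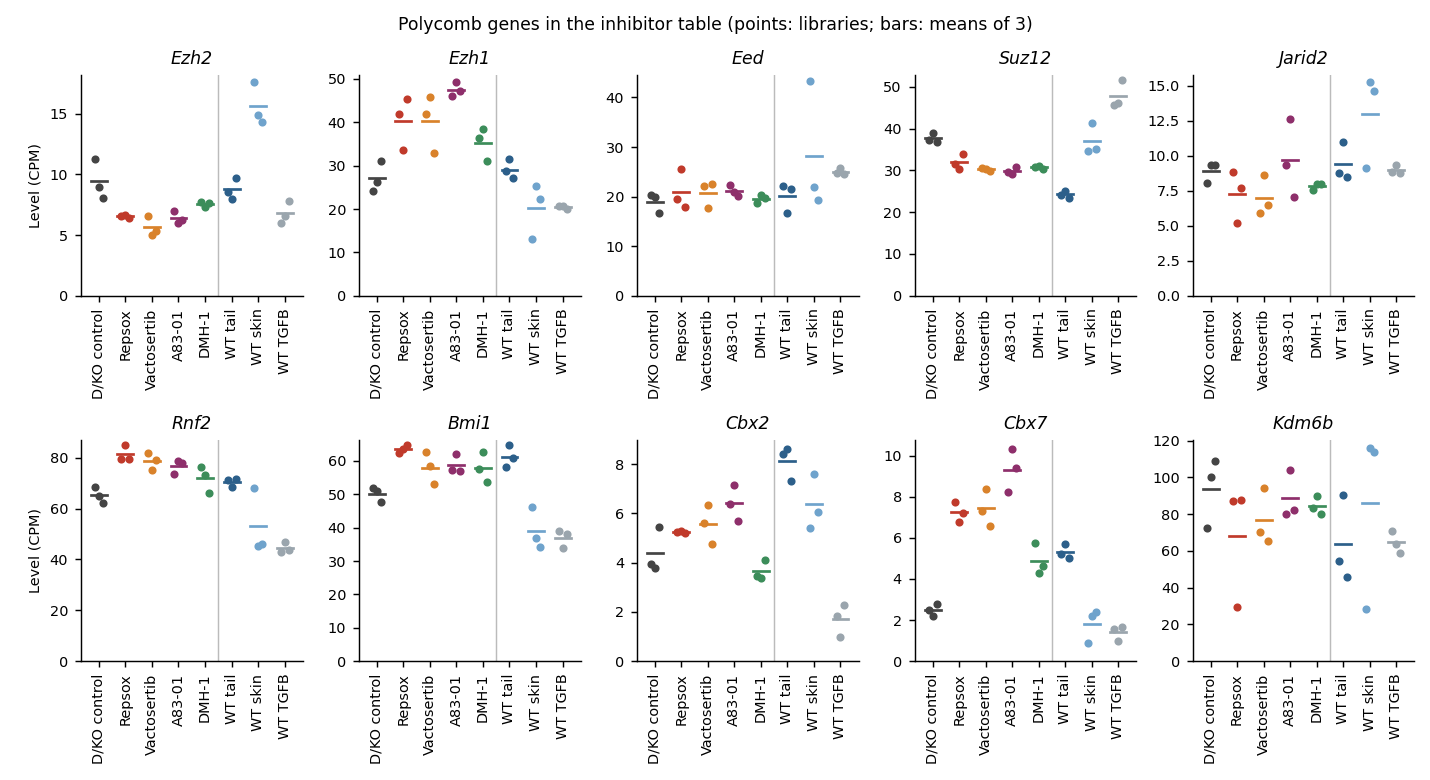
Level of each of the 10 Polycomb genes (CPM, vertical axis) in the 8 groups of the inhibitor table (horizontal axis); points are libraries and bars means of 3. Cbx7 in control D/KO cells sits at 2.2 to 2.77 CPM, below every treated D/KO library, and Kdm6b shows 1 low library each in the Repsox and the WT skin group.

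Compounds were compared with each other only where the study used the same dose, which gave 2 pairs, and p-values here were adjusted over all genes of both pairs. DMH-1 and A83-01 differed in 2 members, both higher with A83-01 (20.5% of all genes differed at an adjusted p under 0.05 in that pair alone). Cbx7 was higher by 0.92 (95% interval 0.45 to 1.40, adjusted p = 0.0107). Cbx2 was at 6.39, 7.14 and 5.69 CPM with A83-01 and 3.45, 3.38 and 4.09 with DMH-1, a difference of 0.82 (0.38 to 1.26, adjusted p = 0.0158), with control cells between them at 3.96, 3.76 and 5.43. Ezh1 differed by 0.43 (0.06 to 0.80, adjusted p = 0.184) and Ezh2 by -0.24 (-0.55 to 0.07, adjusted p = 0.513), which were not called. Repsox and Vactosertib differed in no member, where edgeR called 0.0% of all genes and 347 genes had an unadjusted p under 0.05, none of them a member, and DESeq2 called 4 genes. The intervals of that pair were -0.51 to 0.43 for Cbx7, -0.09 to 0.53 for Ezh2 and -0.10 to 0.26 for Suz12, so differences of that size are not shown to be absent.

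Against WT tail cells, control D/KO cells had more Suz12 and less Cbx7, Cbx2 and Bmi1 (34.6% of all genes called). Suz12 was at 24.2, 25.1 and 23.4 CPM in WT tail cells (0.64, SE 0.09, adjusted p = 5.85e-06). Cbx7 was at 5.22, 5.7 and 5.02 CPM there (-1.09, SE 0.24, adjusted p = 0.00127) and Cbx2 at 8.39, 8.6 and 7.33 (-0.89, SE 0.21, adjusted p = 0.00236). The Bmi1 difference of -0.29 (adjusted p = 0.0391) was lost without any of 5 libraries: WT tail replicate 2 or 3, or D/KO control replicate 1, 2 or 3 (adjusted p from 0.0603 to 0.136). Apobec3 was lower as well (-0.88, adjusted p = 1.29e-05), and the part of the exon bases it shares with Cbx7 was not tested. Endothelial markers summed to 273 to 314 CPM in control D/KO and 40.2 to 53.0 in WT tail cells. Schwann cell markers were at 6.61 to 9.54 against 2.27 to 2.61 and immune cell markers at 10.1 to 14.3 against 7.94 to 9.47. Skeletal muscle markers, of which Myod1, Myf5 and Pax7 averaged under 0.1 CPM, were at 10.2 to 12.6 against 2.09 to 3.76. Proliferation markers were at 244 to 250 against 198 to 216. The part of these markers in the differences was not tested. Cbx7 was thus lower in D/KO than in WT tail cells in both tables, whose labels give different ages for the cells, though its mean in control D/KO cells (2.49 CPM) lay above those of WT skin cells (1.83) and of the WT 4F libraries labelled TGFB (1.4) in the inhibitor table, while Ezh1 and Rnf2 were called in the reprogramming table alone. In the inhibitor table their differences from WT tail cells had adjusted p of 0.693 and 0.494, and whether the tables differ was not tested.

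WT skin fibroblasts differed from WT tail fibroblasts in 6 members (34.2% of all genes). Ezh2 was at 17.6, 14.9 and 14.3 CPM in skin and 8.57, 7.98 and 9.72 in tail cells (0.83, SE 0.15, adjusted p = 0.000113), and summed proliferation markers were at 552 to 557 and 198 to 216 CPM. Markers of other cell types were also higher in skin than in tail cells, with skeletal muscle markers (4 genes, of which Myf5 and Pax7 averaged under 0.1 CPM in skin) at 56.0 to 83.5 against 2.09 to 3.76 CPM, endothelial markers at 157 to 232 against 40.2 to 53.0 and Schwann cell markers at 10.1 to 11.3 against 2.27 to 2.61, and their part was not tested. Suz12 was also higher (0.61, adjusted p = 1.24e-05). Cbx7 was lower (0.894, 2.21 and 2.37 CPM; -1.55, SE 0.25, adjusted p = 4.84e-05), as were Bmi1 (-0.65, adjusted p = 5.78e-05), Ezh1 (-0.53, adjusted p = 0.0277) and Rnf2 (-0.41, adjusted p = 0.00919). Skin replicate 1 stood apart, and without it 7 members were called, with Ezh2 at 0.74, Suz12 at 0.65, Cbx7 at -1.22, Bmi1 at -0.79 and Rnf2 at -0.62, while Ezh1 was at -0.29 (adjusted p = 0.122). Jarid2 (0.66, adjusted p = 0.0185) and Kdm6b (0.86, adjusted p = 0.0403) were then called as well, both higher in skin cells. The Ezh1 call was also lost without tail replicate 1 (adjusted p = 0.056) or 2 (0.0899), and that of Rnf2 without skin replicate 2 (0.059) or 3 (0.0574). Kdm6b was at 28.1 CPM and Eed at 43.3 in skin replicate 1, against 116 and 114 and 21.9 and 19.3 in the others.

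The WT 4F libraries labelled TGFB have no control of their line in that table, so their levels are given without a test. They had the lowest Cbx2 (1.84, 0.968 and 2.29 CPM) and the highest Suz12 (45.7, 46.0 and 51.5 CPM) of the 8 groups. Cbx7 was at 1.58, 0.968 and 1.65 CPM and Ezh1 at 20.6, 20.7 and 20.1. Ezh2 was at 5.97, 6.59 and 7.79 CPM, beside the lowest summed proliferation markers of the table (108 to 116 CPM).

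Other Polycomb genes were read from 3 lists. Of 8 further PRC2 subunits tested, 6 rose and 1 fell in D/KO cells with VC at day 4, where 54.1% of all genes were called, with a median of 0.601 beside 0.013 over all genes. Epop, an accessory subunit known from embryonic stem cells, went from 2.07, 3.99 and 5.47 CPM to 118, 142 and 94.5 (4.95, SE 0.30, adjusted p = 2.25e-16), and in WT cells it was at 2.59, 2.33 and 2.79 CPM at day 0 and 3.37, 3.24 and 2.58 at day 4. Phf19 rose from 1.49, 1.05 and 1.26 CPM to 6.34, 6.74 and 5.32 (2.26, SE 0.33, adjusted p = 4.51e-07), the histone-binding subunit Rbbp7 rose by 0.64 and Phf1 fell by 0.78. In WT cells 1 rose and 2 fell (44.7% of all genes called): Phf1 changed by 0.46, Phf19 by -1.32 and Rbbp4 by -0.23. These 3 were called in the other direction in D/KO cells, where Rbbp4 rose by 0.27, though the difference itself was not tested. Against day 0 without VC the WT changes were -0.52 for Phf1 (adjusted p = 0.0128), 0.28 for Phf19 (adjusted p = 0.587) and -0.20 for Rbbp4 (adjusted p = 0.0859), so the direction of the first depends on the baseline. The WT calls were also lost without single libraries for Phf1 (WT day 0 replicate 2 or 3 or day 4 replicate 2, adjusted p from 0.0757 to 0.35) and Rbbp4 (day 0 replicate 1 or 3 or any day 4 replicate, adjusted p from 0.0605 to 0.192).

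Of 22 further PRC1 genes, 5 rose and 4 fell in D/KO cells with VC at day 4 and 6 rose and 3 fell in WT cells, 9 of 22 in each line beside 54.1% and 44.7% of all genes. E2f6, the DNA-binding subunit of a variant PRC1, rose in both lines (1.15 in D/KO, adjusted p = 3.22e-11; 0.80 in WT, adjusted p = 2.14e-07). L3mbtl2 (0.94 in D/KO cells, 0.42 in WT cells), Rybp (0.54 and 0.57) and Pcgf6 (0.75 and 0.98) also rose in both lines. Ring1, the paralog of Rnf2, rose in WT cells (0.62) and was at 0.16 in D/KO cells (adjusted p = 0.348). Cbx6 (-0.88 in D/KO cells, -0.39 in WT cells) and Auts2 (-1.04 and -1.35) fell in both lines, as did Pcgf2 (-0.36 and -0.48). Phc1 fell in D/KO cells (-0.39) and was at -0.24 in WT cells (adjusted p = 0.154), and its D/KO call was lost without day 0 replicate 2 (adjusted p = 0.24) or day 4 replicate 3 (adjusted p = 0.123). Against day 0 without VC the Auts2 changes were 0.16 and 0.52 (adjusted p = 0.648 and 0.146), and in WT cells those of Cbx6 (-0.06), Pcgf2 (-0.18), Pcgf6 (0.57) and Ring1 (0.27) were not called (adjusted p from 0.0625 to 0.67). Of 7 genes of the H2A deubiquitinase PR-DUB and the other H3K27 demethylase, 5 rose in D/KO cells, 3 rose in WT cells and none fell, beside 54.1% and 44.7% of all genes called in either direction. Kdm6a (also called Utx), the other demethylase, rose by 0.93 in D/KO cells against 0.70 in WT cells, whereas Kdm6b fell in D/KO cells. Asxl2 rose in both lines (0.81 and 0.62), in WT cells not without day 0 replicate 1 (adjusted p = 0.0876) or day 4 replicate 3 (adjusted p = 0.0561). Foxk1 rose in D/KO cells (0.99) and was at 0.24 in WT cells (adjusted p = 0.199). Against day 0 without VC the calls of Foxk1 in D/KO cells (0.05, adjusted p = 0.801) and of Kdm6a in WT cells (0.28, adjusted p = 0.0556) were lost. Asxl3 was near 0 at day 0 with VC (0, 0 and 0.211 CPM in D/KO, 0, 0.246 and 0 in WT) and at 3.22, 1.45 and 1.53 CPM in D/KO and 1.22, 0.768 and 1.56 in WT cells at day 4.

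With A83-01, Phf1 rose (0.77) and Epop fell (-1.82) among the 8 PRC2 subunits. Of the 22 PRC1 genes, 4 rose and 2 fell, beside 27.5% of all genes called, among them E2f6 (0.55), Cbx6 (0.75) and Cbx8 (0.66) upward and Pcgf6 (-0.81) and Yaf2 (-0.58) downward. Of the last list, Foxk2 fell (-0.47) and none rose, and the Foxk2 call was lost with DESeq2 (adjusted p = 0.0521) and without any 1 of its 6 libraries (adjusted p from 0.0655 to 0.13). Phf1 and Cbx6 rose with A83-01 and fell in D/KO cells with VC at day 4, and Epop and Pcgf6 fell with A83-01 and rose there. Cbx7 and E2f6 rose in both comparisons.

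The classical Polycomb targets Cdkn2a (p16INK4a and p19ARF) and Cdkn2b (p15INK4b) fell in D/KO cells with enhanced reprogramming. Cdkn2a went from 355, 357 and 367 CPM at day 0 to 128, 177 and 190 at day 4 (-1.12, SE 0.15, adjusted p = 6.77e-08) and Cdkn2b from 123, 145 and 143 to 47.8, 51.1 and 47.9 (-1.48, SE 0.14, adjusted p = 4.84e-11). In WT cells with VC the changes at day 4 were -0.27 (adjusted p = 0.134) and -0.35 (adjusted p = 0.0428), the latter lost without day 0 replicate 1 or 3 or any day 4 replicate (adjusted p from 0.0646 to 0.214) and against day 0 without VC (-0.24, adjusted p = 0.18). The changes were larger in D/KO than in WT cells, by -0.85 for Cdkn2a (adjusted p = 0.00212) and -1.14 for Cdkn2b (adjusted p = 3.53e-05). VC alone raised Cdkn2a in D/KO cells at day 0 (0.41, adjusted p = 0.0382), so its fall there is measured from a raised level. That rise was lost without D/KO day 0 replicate 2 or 3 or any day 0 VC replicate (adjusted p from 0.0655 to 0.147). Without VC, Cdkn2b fell in D/KO cells at day 4 (-0.64, adjusted p = 0.000334) and Cdkn2a did not pass the test (-0.34, adjusted p = 0.067). Cdkn2a in WT cells without VC was at -0.39 at day 4 (adjusted p = 0.053), and the lines' changes differed by 0.04 (adjusted p = 0.933). For Cdkn2b they differed by -0.59 without VC (adjusted p = 0.0386), a call lost when some single libraries were left out (adjusted p from 0.0509 to 0.224). With the inhibitors Cdkn2b went the other way, with rises of 0.70 with Repsox, 0.70 with Vactosertib and 0.93 with A83-01 (adjusted p = 0.00775, 0.00949 and 0.000479), and 0.38 with DMH-1 (adjusted p = 0.249). Repsox replicate 2, which stood apart, was the highest Repsox library for Cdkn2b (202 CPM, against 140.0 and 137), and all 3 lay above the control libraries (106, 90.2 and 98.6). Without it the Repsox rise was 0.50 and the call was lost (adjusted p = 0.0593). Cdkn2a was not called with any compound. Whether the Polycomb genes had a part in these changes was not tested.

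The genes whose pattern was most like each member were named by the Pearson correlation of mean log2 CPM over the 12 groups of the reprogramming table. For Ezh1 they were Gm16083 (r = 0.985), Nr3c2, the mineralocorticoid receptor gene (0.977), and Cyld, a deubiquitinase gene (0.967). Nr3c2 and Cyld were also like Ezh1 over the 8 groups of the inhibitor table, with r of 0.855 and 0.789. Ezh2 was most like Polr3a, a subunit of RNA polymerase III (0.958), Amd1, an enzyme of polyamine synthesis (0.956), and Frrs1 (0.956), but these gave -0.354, -0.055 and 0.148 over the inhibitor groups. Cbx7 was most like Fbrsl1 (0.94), Mettl27 (0.934) and Dlec1 (0.93), and these gave 0.016, 0.959 and 0.899 in the inhibitor table. For Suz12 they were Hirip3 (0.98), Nop58 (0.961) and Nfe2l3 (0.957), and for Cbx2 Gsn (0.965), Kank2 (0.959) and Efhd1 (0.948). These are the highest of the values of all genes tested, over few groups that share lines and media, and are given as descriptions.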

How the data were processed

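The authors deposited 2 tables of raw gene counts. Per the submitters' processing notes, reads were checked with FastQC, trimmed with Trim Galore, aligned to GRCm39 with HISAT2 and counted with featureCounts (Subread). Versions, annotation release and strandedness are not given in the sources used here.

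Of the 56980 identifiers, 56236 (98.7%) were found in GENCODE M39, which gave the symbols. Every column was matched to a sample by its name, and 0 columns were left unmatched. Under R 4.3.3 and edgeR 4.0.16, TMM factors ran from 0.773 to 1.10 and from 0.846 to 1.12, and genes were filtered with filterByExpr (minimum count 10, minimum total 15), which kept 15832 and 15652 genes. Each table had 1 edgeR quasi-likelihood fit (two-sided tests) over all its groups, which share 1 estimate of the spread. Benjamini-Hochberg adjustment ran over all genes of a contrast, with calls at an adjusted p under 0.05. The authors tested genes with DESeq2, which was run here as an alternative (1.42.0). CPM used library sizes scaled by TMM, and levels per kb used the gene lengths in the deposited tables. The pooled biological coefficient of variation was 0.132 and 0.195. Pairs of libraries within a group differed by more than counting noise (chi-square per gene of at least 3.42 and 4.71), so the spread between libraries exceeded counting error and no library was counted as a duplicate. An exact permutation test of 3 libraries against 3 could not go below p = 0.1 and was not used. The script was tested on simulated data.

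The alternatives were DESeq2, its size factors, omitting the filter, a minimum of 10 counts in all libraries, a fit of only the groups compared or of the 18 inhibitor libraries without WT skin and TGFB, leaving out each library, a log2 change of 1 or more in either direction, subtracting the median change, and day 0 without VC as the baseline. Named genes were the 10 members, Cdkn2a and Cdkn2b, the factors and Ercc1 as checks, the 3 genes with the smallest p in each direction among 3 lists of other Polycomb genes in 3 comparisons, and the 3 genes most like a member. Members and lists were chosen with earlier results of these data known. Promoter windows are RefSeq's in GRCm38.p6, matched by symbol, and Cbx2 and Kdm6b had none. Their coordinates were not mixed with those of the tables. Gene columns of other kinds (coordinates and length) were used only for position and length.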

Additional observations from a re-analysis of the deposited data

Results flagged for a closer look

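The D/KO and WT changes from day 0 were compared through an interaction term in the same fit, and 9 differences between the lines passed an adjusted p under 0.05 among the members: 1 at day 2 and 3 at day 4 without VC, and 2 and 3 with VC, of 10 each, beside 6.54%, 14.3%, 13.9% and 29.4% of all genes. Genotype, sex, age and line differ together, so what separates the lines cannot be told apart. At day 2 without VC Cbx7 changed by 1.03 in D/KO cells against -0.22 in WT cells, a difference of 1.25 (SE 0.27, adjusted p = 0.00274), and by 1.64 and 0.49 at day 4, a difference of 1.14 (SE 0.27, adjusted p = 0.00271). At day 0 WT cells held more Cbx7 than D/KO cells, at 12.9 to 14.5 against 2.71 to 3.8 CPM. For Ezh1 the changes at day 4 without VC were 1.48 and 0.94, a difference of 0.53 (SE 0.16, adjusted p = 0.02) that was not called when any 1 of 5 libraries was left out (adjusted p from 0.0539 to 0.0888). Kdm6b differed by -0.89 at day 4 without VC (-0.61 and 0.28; SE 0.19, adjusted p = 0.000788), by -0.60 at day 2 with VC (-0.54 and 0.06; SE 0.19, adjusted p = 0.0271) and by -0.85 at day 4 with VC (-0.49 and 0.36; SE 0.19, adjusted p = 0.000705). The second of these was lost against day 0 without VC (-0.46, adjusted p = 0.077) and when any 1 of 6 libraries was left out.

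With VC, the difference in Ezh2 was 1.32 at day 2 (0.96 and -0.36; SE 0.26, adjusted p = 0.00041) and 1.16 at day 4 (1.30 and 0.14; SE 0.26, adjusted p = 0.000692), but against day 0 without VC it was 0.67 (adjusted p = 0.0667) and 0.51 (adjusted p = 0.171). Of the 15 proliferation markers, 15 also changed more upward in D/KO than in WT cells at each of these days, and their part in the Ezh2 difference was not tested. Bmi1 differed by -0.37 at day 4 with VC (-0.51 and -0.14; SE 0.12, adjusted p = 0.0175), which was lost against day 0 without VC (-0.28, adjusted p = 0.102) and without D/KO day 0 replicate 3 or WT day 4 replicate 3 (adjusted p = 0.068 and 0.0575).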

How the results depend on the processing

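No paired analysis was possible because the labels number the libraries in series and the groups compared share no replicate number. Of 103 called changes of the members, all 103 kept their direction and their call with DESeq2, with DESeq2's size factors, with at least 10 counts in every library and after subtracting the median change. Without a filter 86 kept their call and 17 lost it, in a fit of only the groups compared 91 and 12, with 18 inhibitor libraries 20 of 20 kept it, and over single libraries left out 579 of 672 did and 93 did not, with 0 reversed. Against day 0 without VC, 23 of 31 kept their call, 7 lost it and 1 reversed: Cbx7 in WT cells with VC at day 4 was -0.872, against 0.80 from day 0 with VC. Counting error weighs most on Cbx7, Cbx2, Jarid2 and Ezh2, the members of lowest level, whose lowest counts in a library were 20, 21, 96 and 101.

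With a log2 change of 1 or more in either direction required, there were 0 of 8 members called in D/KO with VC at day 2, 2 of 7 at day 4, 2 of 5 in D/KO at day 2, 0 of 2 from day 2 to 4 and 1 of 2 with VC, and in WT cells 2 of 8 with VC at day 4, 1 of 2 at day 2, 1 of 4 at day 4, 1 of 3 with VC at day 2, 0 of 4 from day 2 to 4 and 0 of 2 with VC. For VC against no VC it left 1 of 3 at day 2 and 1 of 5 at day 4 in D/KO cells, and 1 of 3 at day 0 and 1 of 2 at day 4 in WT cells. It left 1 of 3 line differences at day 4, 1 of 2 at day 2 with VC and 1 of 3 at day 4 with VC, 1 of 3 between the lines at day 0, 1 of 4 each with Repsox, Vactosertib and A83-01, 0 of 2 with DMH-1, 0 of 2 between A83-01 and DMH-1, 1 of 4 between control D/KO and WT tail cells and 1 of 6 between WT skin and tail cells. Without a filter, 1 member was called from day 2 to 4 in D/KO cells with and without VC and with DMH-1, and 2 with Repsox and with A83-01. In fits of only the groups compared, 1 was called from day 2 to 4 in D/KO cells, with Repsox and with DMH-1, 4 from day 2 to 4 in WT cells with VC and for VC at day 4 in WT cells, and 7 with A83-01, as with 18 libraries. Against day 0 without VC, 6 were called in WT cells with VC at day 2, and 1 line difference at day 2 with VC. Leaving out single libraries gave 1 to 2 line differences at day 2, without and with VC, 2 to 4 at day 4, 1 to 2 from day 2 to 4 in D/KO cells without and with VC and in WT cells with VC, 0 to 1 with DMH-1, 2 to 3 with Repsox, 2 to 4 with Vactosertib, 3 to 5 with A83-01, and 1 to 2 for VC at day 2 and 2 to 3 at day 4 in WT cells.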

Other observations

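The ratio of Cbx7 to Cbx2, paralogs that bring PRC1 to methylated H3K27, spanned a wide range of group means per kb, from 0.155 in D/KO cells with VC at day 2 to 2.71 in WT cells at day 0. For the members with no gene named above, those most like them over the 12 groups of the reprogramming table were Rab9 (r = 0.961), Sgce (0.924) and Atp1b1 (0.91) for Rnf2, and Slc36a4 (0.963), Fam118a (0.921) and Atxn7l3 (0.919) for Bmi1. Over the 8 inhibitor groups Fam118a and Bmi1 went opposite ways (r = -0.884), and Sgce and Rnf2 the same way (0.858). Jarid2 was most like 5031425E22Rik (0.961), Mib1 (0.954) and Nr6a1 (0.95), which gave 0.865, 0.045 and 0.538 over the inhibitor groups. Eed was most like Nom1 (0.905), Ascl2 (0.9) and Riok2 (0.887), and Kdm6b like Rai1 (0.946), Micall1 (0.944) and Nbeal1 (0.935).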
